A study of Homo sapiens with 6 samples.

Results

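Genes for surface proteins that mark or co-direct T-cell activation were followed in Jurkat cells exposed to bisphenol AF (BPAF), 10 in all: CD69, CD28, CTLA4, ICOS, CD40LG, PDCD1, CD5, CD6, CD27 and CD44. They were taken by name, whatever their levels, and each of the 10 symbols matched 1 Ensembl identifier among the 60856 features of the deposited tables. Jurkat is an established line of human leukemic T lymphocytes, and the labels give it as wild type. The DMSO group was 3 libraries from cells given 0.1% dimethyl sulfoxide, the vehicle, and the BPAF group was 3 libraries from cells given 1 μM BPAF, a fluorinated relative of bisphenol A. The labels of the samples put the exposure at 12 h, whereas the protocol text puts it at 24 h. No stimulus of the T-cell receptor is named in the labels, and all 6 libraries come from 1 transformed line, so the levels are those of this line in culture and not of primary T cells.

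A T cell needs a signal from its antigen receptor and further signals from costimulatory receptors to become fully active. CD28 and ICOS are costimulatory receptors of the CD28 family, and CTLA4 and PDCD1 (PD-1) are its inhibitory members. CD27 is a costimulatory receptor of the TNF receptor family, and CD40LG is the TNF family ligand with which T cells instruct B cells and dendritic cells. CD5 and CD6 are scavenger receptor proteins that set the strength of T-cell receptor signalling, CD69 is an early surface marker of activation, and CD44 is the hyaluronan receptor that rises on activated and memory T cells.

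The 10 transcripts fell into 5 that were clearly expressed (CD5, CD28, CD6, CD69 and CD40LG, each above 10 TPM on average) and 5 that were scarce (CD27, ICOS, PDCD1, CTLA4 and CD44, each under 1 TPM on average). CD69 was lower in every BPAF library than in any DMSO library, with a fitted difference of -18.8%, and missed the threshold of the test. For CD28, CD5, CD6 and CD40LG the fitted differences lay between -3.6% and -1.6%. With edgeR's quasi-likelihood test over all genes, 0 of the 7 members with enough counts to test passed an adjusted p of 0.05, where 6.06% of all 15490 tested genes passed, 2.65% as higher and 3.4% as lower in BPAF. CD69 was the 1 member with an unadjusted p under 0.05, against 19.9% of all tested genes. Limma-voom called 0 members and 4.99% of all genes. DESeq2 with its filter on weak genes gave an adjusted p to only 3 members, CD28, CD5 and CD6, and called 0 of them and 9.33% of the genes kept. With that filter off it called 0 of 7 members and 4.07% of genes.

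CD28, CTLA4 and ICOS lie in a row on the forward strand of chromosome 2, and their promoters are shown because these neighbours of 1 family differed widely in level. In GENCODE release 29 (GRCh38), CD28 (ENSG00000178562) spans 203706475 to 203738912, CTLA4 (ENSG00000163599) 203867771 to 203873965 and ICOS (ENSG00000163600) 203936748 to 203961577. CTLA4 starts 128.9 kb after the end of CD28, and ICOS starts 62.8 kb after the end of CTLA4. RefSeq promoter windows (GRCh38.p14, 250 bases before the start that RefSeq gives each gene) were matched for 6 of the 10 members. CD69, CD40LG, CD5 and CD6 had none. RefSeq and GENCODE starts can differ, and the windows of CD28, ICOS and PDCD1 run into the GENCODE gene. The CD44 window (35138921 to 35139170) lies wholly inside the GENCODE gene. The CD27 window (6443642 to 6443891) ends before the GENCODE start at 6444867. Those of CD28, CTLA4 and ICOS are printed 5′ to 3′ on the forward strand. Printing stops at the base before the first base of the gene in either annotation. Capitals mark GGAAA on either strand, the core of the sites that NFAT factors bind.
CD28 (chr2:203706389-203706474): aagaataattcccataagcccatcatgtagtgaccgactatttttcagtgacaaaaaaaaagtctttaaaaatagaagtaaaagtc
CTLA4 (chr2:203867521-203867770): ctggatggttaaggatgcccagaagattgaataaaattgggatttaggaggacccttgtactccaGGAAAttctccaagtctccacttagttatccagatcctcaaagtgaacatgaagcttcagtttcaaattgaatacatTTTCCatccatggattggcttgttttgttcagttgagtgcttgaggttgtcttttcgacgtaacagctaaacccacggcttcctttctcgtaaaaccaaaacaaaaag
ICOS (chr2:203936513-203936747): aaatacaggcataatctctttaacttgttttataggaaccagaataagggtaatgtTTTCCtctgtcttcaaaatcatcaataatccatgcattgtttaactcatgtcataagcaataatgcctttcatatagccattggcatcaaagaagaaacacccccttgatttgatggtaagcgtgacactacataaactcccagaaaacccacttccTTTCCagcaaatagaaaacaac

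The letters GGAAA occurred 2 times in the CTLA4 window, 2 times in the ICOS window and 0 times in the whole 250-base CD28 window, and 56% of 27305 promoter windows of that length held them. In the windows of PDCD1, CD27 and CD44, all scarce members, they occurred 1, 4 and 0 times. The PDCD1 match lay in the part of its window inside the gene. CD28 was the only clearly expressed member with a window, so windows of expressed and scarce members cannot be compared. TGANTCA, the letters of an AP-1 site, occurred 0 times in the windows of CD28, CTLA4 and ICOS and 1 time in that of CD27, against 6.6% of all windows. A full estrogen response element, written as GGTCA and TGACC with any 3 bases between them, occurred in 0 of the 6 members' windows and in 0.0439% of all windows. Both strands were searched and no matches overlapped in the members' windows. These matches describe letters in a short window and are not measured binding sites.

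Among members of the CD28 family, CD28 itself carried nearly all of the signal. CD28, which binds CD80 and CD86, was at 18.04, 18.91 and 18.8 TPM in DMSO replicates 1 to 3 and at 19.54, 20.97 and 19.65 TPM in BPAF. TPM, as deposited, is an abundance scaled for length, with the length used for each gene not stated, and is the scale on which genes are compared with each other here. ICOS, the inducible costimulator, was at 0.49, 0.36 and 0.52 TPM in DMSO and at 0.3, 0.4 and 0.5 TPM in BPAF. The mean TPM of CD28 was 40.7 times that of ICOS in DMSO.

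PDCD1 and CTLA4, the inhibitory receptors of the family, were close to the limit of detection. For PDCD1 (ENSG00000188389, chromosome 2, 241849881 to 241858908, reverse strand) the counts were 3, 2 and 1 in the DMSO libraries and 1, 1 and 2 in the BPAF libraries. For CTLA4 they were 1, 0 and 1 in the DMSO libraries and 0 in each BPAF library. A count of 0 allows up to 3 counts, which is 0.0467 CPM over the summed BPAF counts, and this limit covers counting error only. No fold was drawn for either gene, since neither had more than 3 counts in any library.

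**Figure D1:**
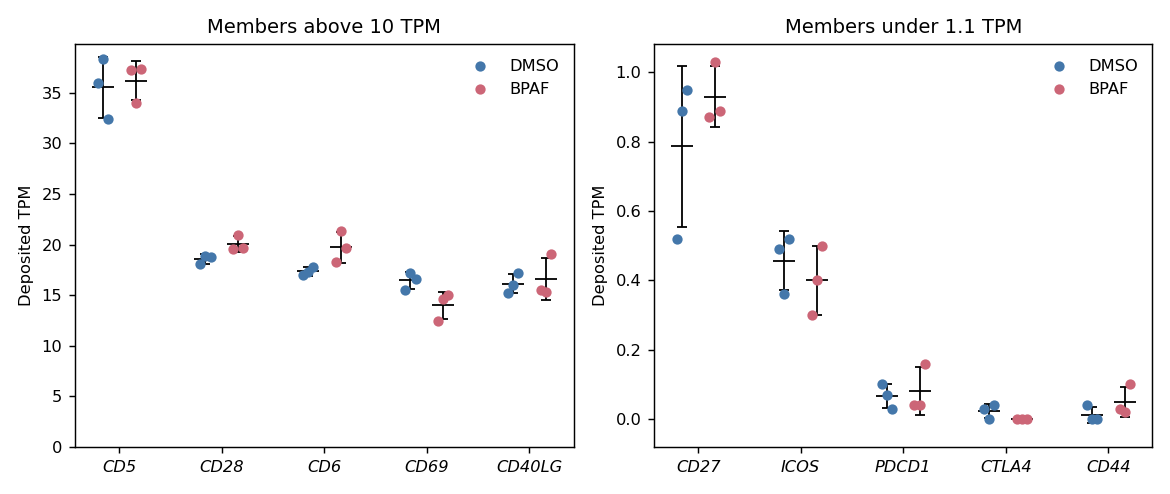
Deposited TPM (y axis, linear) of the 10 members in 3 DMSO (blue) and 3 BPAF (red) libraries; points are libraries, dashes are means and bars are the SD of 3 libraries. CD5 stands highest at 32.38 to 38.31 TPM, and every library of the 5 scarce members lies at or under 1.03 TPM on the expanded scale of the right panel.

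In the order of mean TPM in DMSO, CD5 came first at 35.5 ± 2.98 (SD, n = 3), followed by CD28 at 18.6 ± 0.474, CD6 at 17.4 ± 0.432, CD69 at 16.5 ± 0.865 and CD40LG at 16.1 ± 0.965. CD5 was above CD28 in every library. The libraries of CD6 and CD69 overlapped in DMSO, as did those of CD69 and CD40LG, so their order there is not resolved. In BPAF, CD28 at 20.1 ± 0.796 and CD6 at 19.7 ± 1.53 TPM overlapped, and CD69 at 14.0 ± 1.35 TPM lay below every library of CD40LG (16.6 ± 2.08). A gap followed, with CD27 at 0.787 ± 0.233 and ICOS at 0.457 ± 0.085 TPM in DMSO, whose libraries also overlapped. CD5 exceeded 79.9% of annotated protein-coding genes in mean TPM in DMSO, CD28, CD6, CD69 and CD40LG exceeded 66.7% to 69.0%, and CD44 exceeded 23.2%. The 10 members together summed to 103.0 to 109.0 TPM per DMSO library and 104.0 to 112.0 TPM per BPAF library, and the 5 highest supplied 98.52% to 98.85% of it.

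CD69 (ENSG00000110848, chromosome 12, 9752486 to 9760901, reverse strand) was the member with the smallest p. Its counts were 293, 279 and 300 in DMSO replicates 1 to 3 and 231, 233 and 267 in BPAF replicates 1 to 3. As CPM, in which TMM-scaled library totals are made equal, these were 13.4, 13.6 and 14.6 in DMSO and 10.7, 11.4 and 11.6 in BPAF. The highest BPAF library lay under the lowest DMSO library, a separation that 12.8% of all tested genes had in the same direction and 24.8% had in either. The log2 fold change was -0.30 ± 0.09 (SE), with a 95% interval from -0.49 to -0.11 and an edgeR adjusted p of 0.053, and the gene ranked 986 of 15490 by p. The deposited TPM of CD69 was 15.51, 17.21 and 16.64 in DMSO and 12.46, 14.59 and 14.97 in BPAF. The groups did not overlap on that scale either, and limma on log2(TPM + 1) gave a log2 difference of -0.22 (limma adjusted p = 0.273), where the median of all tested genes was 0.078.

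**Figure D2:**
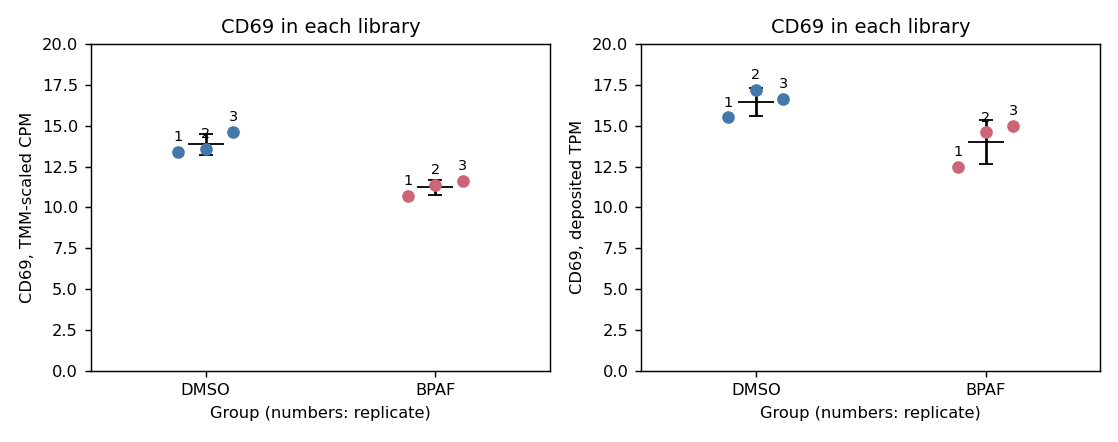
CD69 in each library as TMM-scaled CPM (left) and as deposited TPM (right), both axes linear from 0; numbers are replicates, dashes are means and bars are the SD of 3 libraries. The BPAF libraries lie between 10.7 and 11.6 CPM and the DMSO libraries between 13.4 and 14.6 CPM.

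The adjusted p of CD69 varied with the fit. It was 0.0495 when no filter on low counts was applied, which was the 1 alternative of 16 in which any member passed. It was 0.066 with limma-voom and 0.167 with DESeq2 without its filter on weak genes. With its own filter, DESeq2 gave CD69 no adjusted p. With 1 library left out, edgeR adjusted p ran from 0.0803 to 0.207, so that CD69 passed in 0 of those 6 fits, while its log2 fold change stayed between -0.33 and -0.26.

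The 5 genes whose CPM followed CD69 most closely, by Pearson correlation of log2 CPM over the 6 libraries among 9919 other genes with a symbol and an average log2 CPM of at least 3, were ARPC3, MRPS28, PCNA, HSPA13 and ZCCHC10, with r from 0.9949 to 0.9975. The points share library, depth and the difference between the groups, so these values are a description. ARPC3 encodes a subunit of the actin-nucleating ARP2/3 complex, and its CPM was 177.0, 177.0 and 182.0 in DMSO and 164.0, 167.0 and 170.0 in BPAF. MRPS28 encodes a mitochondrial ribosomal protein, and it fell by 0.28 on the log2 scale (edgeR adjusted p = 0.0173), from a level of 23.6 to 25.1 CPM in DMSO.

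The counts of CD28 were 1472, 1364 and 1420 in DMSO, against 1413, 1369 and 1530 in BPAF. Scaled, these were 67.3, 66.3 and 69.2 CPM against 65.4, 67.1 and 66.6 CPM, and the groups overlapped. The log2 fold change was -0.03 ± 0.04 (SE; edgeR, adjusted p = 0.796). Its 95% interval ran from -7.7% to 4.3% in BPAF, the narrowest among the members. On the TPM scale the sign was the opposite, with a log2 difference of 0.10 (limma adjusted p = 0.43), and there the BPAF libraries lay above all DMSO libraries, as did those of 21% of tested genes.

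**Figure D3:**
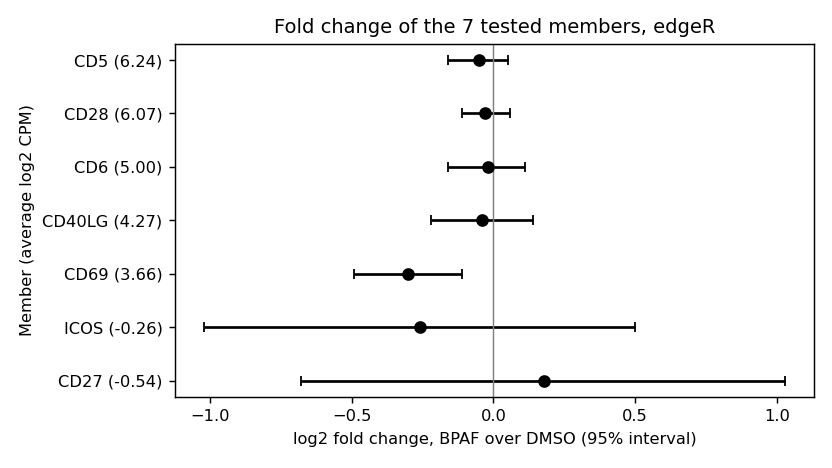
Log2 fold change of BPAF over DMSO (x axis) for the 7 tested members, ordered by average log2 CPM (in parentheses), from edgeR; points are estimates and bars are 95% intervals. The interval of CD69 lies wholly below 0, from -0.49 to -0.11, and those of the other 6 members span 0.

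CD5 and CD6, which lie on the forward strand of chromosome 11 with 82.0 kb between them, were both well expressed. CD5 (ENSG00000110448, 61102395 to 61127852), which dampens receptor signalling, was at 77.7, 81.6 and 71.1 CPM in DMSO and at 76.2, 70.5 and 75.3 CPM in BPAF. The groups overlapped, and the log2 fold change was -0.05 ± 0.05 (SE; edgeR, adjusted p = 0.62), with an interval from -10.3% to 3.6% in BPAF. CD6 (ENSG00000013725, 60971680 to 61020377), a receptor for ALCAM, was at 31.2, 32.4 and 33.2 CPM in DMSO and at 29.6, 34.7 and 31.1 CPM in BPAF. Its BPAF libraries fell on both sides of the DMSO range, and the log2 fold change was -0.02 ± 0.06 (SE; edgeR, adjusted p = 0.899), with an interval from -10.3% to 8.0%.

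On the TPM scale the groups of CD6 were apart and those of CD5 were not; this contrast between the genes was not tested. CD6 was at 16.95, 17.3 and 17.81 TPM in DMSO and 18.24, 21.3 and 19.63 TPM in BPAF. These groups did not overlap, with BPAF higher, as for 21% of tested genes. The log2 difference was 0.17 on the log2(TPM + 1) scale (limma adjusted p = 0.292), where the median of all tested genes was 0.078. CD5 was at 35.92, 38.31 and 32.38 TPM in DMSO and 37.24, 33.99 and 37.36 TPM in BPAF, with a log2 difference of 0.03 (limma adjusted p = 0.868). In TPM, groups did not overlap for 24.5% of all tested genes, and 3 of the 7 tested members were among these genes: CD69, CD28 and CD6.

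The TNF family pair differed widely in level. CD40LG (ENSG00000102245, chromosome X, 136648193 to 136660390, forward strand) was at 18.3, 18.9 and 21.3 CPM in DMSO and at 17.7, 17.7 and 21.3 CPM in BPAF. Replicate 3 was the highest library in both groups, and the groups overlapped. The log2 fold change was -0.04 ± 0.09 (SE; edgeR, adjusted p = 0.854), with an interval from -14.3% to 10.2% in BPAF.

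CD27 (ENSG00000139193, chromosome 12, 6444867 to 6451718, forward strand) had 6.78, 13.34 and 14.92 estimated counts in DMSO and 12.31, 15.08 and 14.3 in BPAF. DMSO replicate 1 was the low library, and without it the log2 fold change went from 0.18 to -0.11. CD27 was the 1 member of 10 whose deposited counts were not whole in every library. It lies within CD27-AS1 on the opposite strand (6439001 to 6451567) over most of its length, and its last bases overlap TAPBPL on the same strand (from 6451690). CD27-AS1 carried 278.17 to 325.8 estimated counts per library, and no source at hand names the strand setting of the counting, which leaves the counts of CD27 uncertain. The interval of its fold change ran from -37.4% to 104.5% in BPAF (edgeR adjusted p = 0.871).

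The remaining scarce members gave little precision. The counts of ICOS were 19, 13 and 19 in DMSO, against 11, 14 and 19 in BPAF, and its log2 fold change was -0.26 ± 0.36 (SE; adjusted p from edgeR, 0.767). The interval reached from -50.6% to 41.5%, so a difference of that size was not detectable at this depth. CD44 (ENSG00000026508, chromosome 11, 35138870 to 35232402, forward strand) was counted 1, 0 and 0 times in DMSO, against 2, 1 and 1 times in BPAF, and was not tested. All 3 untested members, CTLA4, PDCD1 and CD44, had at most 3 counts in any library.

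The ligands of these receptors were mostly scarce in the same cells. Of 14 symbols in a list of ligands and counter-receptors, 6 were tested, 1 fell and 0 rose, with a median log2 fold change of -0.07 against 0.0019 for all tested genes. CD80, CD86, ICOSLG and CD40 were at 0.19 TPM or lower in every library, and PDCD1LG2 was listed at 0 in all 6. CD70, the ligand of CD27, was at 0.48, 1.14 and 0.68 TPM in DMSO and 0.2, 0.62 and 0.75 TPM in BPAF, whereas ALCAM, the ligand of CD6, was at 9.16 to 9.57 TPM in DMSO and 9.19 to 10.01 TPM in BPAF. The gene that fell was MYL12B, a myosin light chain reported to bind CD69, from 190.0 ± 4.47 CPM in DMSO to 169.0 ± 2.67 CPM in BPAF (SD, n = 3). Its log2 fold change was -0.17 ± 0.03 (SE; edgeR, adjusted p = 0.00256). Leaving out any 1 library kept MYL12B past the threshold, with an adjusted p of at most 0.026. Its counts were not all whole and it has a near-identical copy, MYL12A, so the split of reads is uncertain; the sum of both was 316.0 to 335.0 CPM in DMSO and 291.0 to 294.0 CPM in BPAF.

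For other surface receptors of T cells, the lists were too small to be told apart from the 6.06% of all tested genes called with edgeR. Of 12 other inhibitory receptors, 6 were tested and 0 rose or fell with edgeR (0 with an unadjusted p under 0.05), and LAIR1, the highest of these, averaged 79.1 ± 0.585 CPM in DMSO and 80.9 ± 3.84 CPM in BPAF. The smallest p among them belonged to KLRG1 (log2 fold change -0.37, edgeR adjusted p = 0.487) and CD244 (-0.34, edgeR adjusted p = 0.666), each at 2.63 CPM or lower in every library. TIGIT was listed at 0 in all 6 libraries. Of 30 other costimulatory and adhesion receptors, 23 were tested, 1 fell and 0 rose, with a median log2 fold change of -0.05. The integrin subunit gene ITGB1 was the one that fell, from 163.0 ± 4.18 to 150.0 ± 5.03 CPM (edgeR adjusted p = 0.0475), and it passed in 2 of 6 fits with 1 library left out. ITGB1 did not pass with limma-voom (adjusted p = 0.0721) or unfiltered DESeq2 (adjusted p = 0.109). Its log2 difference was -0.03 on the log2(TPM + 1) scale, against a median of 0.078 for all tested genes. CD2, the receptor for CD58, was at 84.2 ± 2.02 CPM in BPAF with a log2 fold change of 0.02 (adjusted p = 0.81, edgeR).

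Of 21 other surface markers of activation, 15 were tested, 1 fell and 0 rose, with a median log2 fold change of -0.03. TFRC, the transferrin receptor that proliferating T cells display, fell from 425.0 ± 21.8 CPM in DMSO to 382.0 ± 6.75 CPM in BPAF (fold change on the log2 scale -0.15, SE 0.03; edgeR adjusted p = 0.00948). Its log2 difference was 0.02 on the log2(TPM + 1) scale, where the median of all tested genes was 0.078. Without BPAF replicate 1 the edgeR adjusted p of TFRC was 0.0711. IL2RA, the alpha chain of the interleukin 2 receptor and a classical marker of activation, was at 0.03 TPM or lower in every library. CXCR4, a chemokine receptor, had a log2 fold change of -0.08 (adjusted p = 0.168, edgeR).

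**Figure D4:**
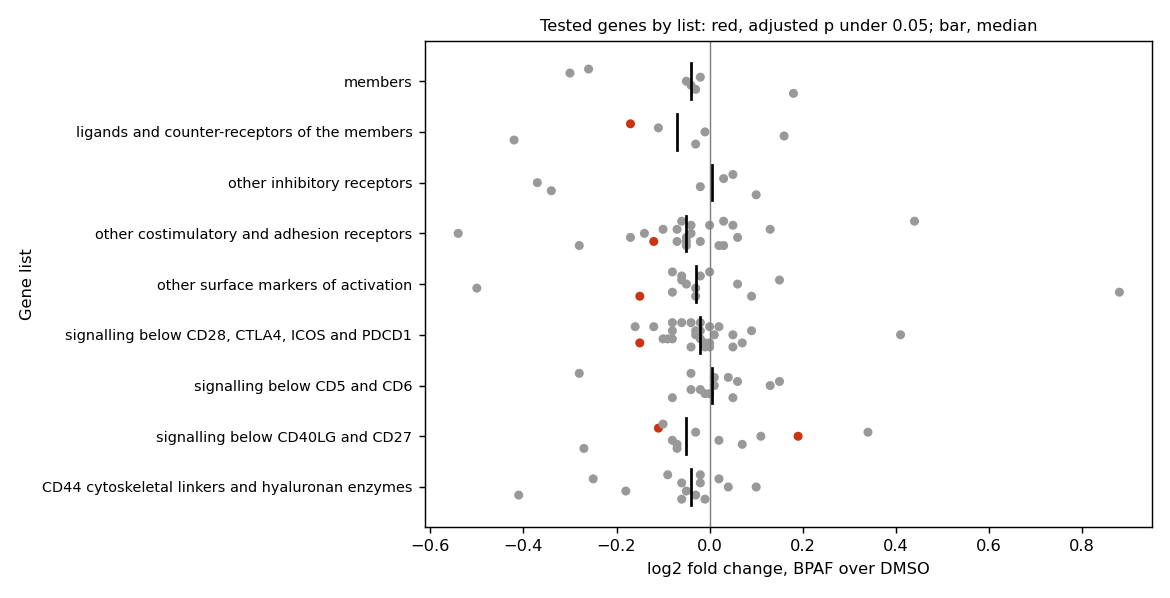
Log2 fold change of BPAF over DMSO (x axis, edgeR) for the tested genes of each list (rows); each point is a gene, red where its adjusted p was under 0.05, black bars are list medians, and vertical scatter within a row has no meaning. The list medians lie between -0.07 and 0.01, and some rows, that of the members among them, hold no red point.

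The 8 lists of ligands, other receptors and signalling genes held 116 tested genes counted once each, of which 1 rose and 5 fell. That is 5.17%, beside 6.06% of all tested genes. Among 28 genes for signalling below CD28, CTLA4, ICOS and PDCD1, 1 fell and 0 rose, with a median log2 fold change of -0.02.

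Among 12 genes for signalling below CD40LG and CD27, 1 rose and 1 fell, with a median log2 fold change of -0.05. TRAF5, an adaptor that links TNF receptors to NF-kB, averaged 93.0 ± 0.711 CPM in DMSO and 106.0 ± 4.83 CPM in BPAF (SD, n = 3), and its groups did not overlap. TRAF5 rose with a log2 fold change of 0.19 (SE 0.04; adjusted p = 0.00734, edgeR), and it passed in 4 of 6 fits with 1 library left out, all but those without BPAF replicate 1 or BPAF replicate 3 (where edgeR adjusted p was at most 0.061). The counts of TRAF5, SIVA1 and ITGB1 were not all whole. SIVA1, a pro-apoptotic partner of CD27, was at 224.0, 219.0 and 223.0 CPM in DMSO and 212.0, 210.0 and 194.0 CPM in BPAF. SIVA1 fell with a log2 fold change of -0.11 (SE 0.03; adjusted p = 0.0484, edgeR) and was not called once any 1 library was left out (adjusted p from 0.0529 to 0.239), with limma-voom (0.0773) or with unfiltered DESeq2 (0.102).

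For signalling below CD5 and CD6, 0 of 14 tested genes passed with edgeR, and 3 had an unadjusted p under 0.05: SH2B3, GRAP2 and GADD45B. Over all tested genes, 6.06% passed with edgeR and 19.9% had an unadjusted p under 0.05, so counts this small do not set a list apart. SH2B3, an adaptor that restrains cytokine signalling, averaged 42.8 ± 0.784 CPM in DMSO and 46.8 ± 1.51 CPM in BPAF (edgeR adjusted p = 0.146). Of 21 genes for CD44 linkers and hyaluronan enzymes, 14 were tested and 0 passed, with a median log2 fold change of -0.04 and 2 unadjusted p under 0.05. Those were of HYAL3, a hyaluronidase family gene at 4.8 ± 0.69 CPM in DMSO and 3.62 ± 0.178 in BPAF (edgeR adjusted p = 0.163), and HMMR, a hyaluronan-binding mitotic protein gene at 87.4 ± 1.37 and 81.8 ± 3.1 CPM (edgeR adjusted p = 0.192). EZR, which encodes ezrin and ties CD44 to the actin cytoskeleton, averaged 209.0 ± 4.88 CPM in DMSO and 201.0 ± 2.91 CPM in BPAF (edgeR adjusted p = 0.304) although CD44 itself was nearly absent. The genes named from these lists were not called by limma-voom or unfiltered DESeq2 either.

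The libraries held 20253656 to 22617613 counts, and the groups overlapped in total. All 11 T lineage markers were tested and 0 were called, with a summed level of 3953 to 4176 TPM in DMSO and 4044 to 4212 TPM in BPAF. The 5 myeloid markers summed to 0.88 TPM or lower, and the B-cell markers MS4A1, CD79B and PAX5 were at 0.07 TPM or lower in every library, although CD79A averaged 22.4 TPM. The 4 erythroid markers summed to 113.0 to 119.0 TPM in DMSO and 92.9 to 128.0 TPM in BPAF, mostly from globin genes. Epithelial markers summed to 0.52 to 0.68 TPM in DMSO and 1.21 to 1.47 in BPAF, with EPCAM and CDH1 at 0 throughout; their part in the results above was not tested. In bulk RNA, fewer cells with a transcript and less transcript per cell cannot be told apart.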

How the data were processed

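Estimated counts per gene were deposited by the authors, with decimals for some genes, and TPM values were deposited beside them for the same 60856 features. Tools named in the submitters' processing notes are HISAT2, featureCounts, cutadapt and FastQC, with the builds GRCh38 and hg38; versions, the annotation, the strand setting and the way TPM was computed are not given in the sources used here. Of the features, 192 carried no gene identifier and took 0.243% to 0.271% of counts per library.

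Counts were rounded and filtered with filterByExpr (minimum count 10). EdgeR 4.0.16 (R 4.3.3) was used for TMM scaling and its robust quasi-likelihood test, without covariates and over all 6 libraries, with Benjamini-Hochberg adjustment over all 15490 genes and a threshold of 0.05. SE is the log2 fold change divided by the square root of F; 95% intervals follow from it. Alternatives were scaling by RLE or upper quartile, looser and stricter filters, DESeq2 1.42.0, voom in limma 3.58.1, limma on log2(TPM + 1 or 0.1), the replicate block and each library left out; DESeq2 without its filter and the test of counts per TPM were chosen after seeing the data. Every pair of libraries differed by more than sampling noise (chi-square over its degrees of freedom, 2.388 to 7.705). The replicates are called biological without further detail, so p-values set the difference between the groups against the spread between these libraries only.

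The members and lists were chosen with earlier results of these data known. All 10 members were named whatever their values; from each other list, genes past the threshold were named (1 is not reported here), or else those with the smallest p, and other genes (CD2, CXCR4, IL2RA, TIGIT and the other ligands) were chosen after their values were seen. GENCODE release 29 (GRCh38) gave coordinates, which describe the matched identifiers only.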

Additional observations from a re-analysis of the deposited data

How the results depend on the processing

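Over 16 alternatives, CD69 stayed lower in BPAF (log2 fold change from -0.33 to -0.22). ICOS did too in all 15 that gave it a value (from -0.44 to -0.06), and the stricter filter left it out. No member was called in any alternative except without a filter on low counts, where 1 member, CD69, was lower (edgeR adjusted p = 0.0495); the larger set of tested genes there was 30134. On log2(TPM + 1) the signs of CD28 (0.10), CD40LG (0.04), CD5 (0.03) and CD6 (0.17) were reversed, as on log2(TPM + 0.1) with 0.11, 0.04, 0.03 and 0.18; the median of all genes was 0.078 and 0.089, and the cause was not tested. With 1 library left out the log2 fold change of CD40LG ran from -0.14 to 0.02, above 0 when DMSO replicate 3 (0.02), BPAF replicate 1 (0.0035) and replicate 2 of that group (0.0037) were each left out, that of CD6 from -0.09 to 0.03 (0.03 without BPAF replicate 1) and that of CD27 from -0.11 to 0.41.

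Over all genes, edgeR called 938 (411 higher, 527 lower), upper quartile scaling 861 (461 higher, 400 lower) and limma on TPM 1 with a pseudocount of 1 and 2 with 0.1. Leaving out 1 library gave 322 to 861, with 482 without DMSO replicate 1, 322 without BPAF replicate 1 and 392 without BPAF replicate 3. Deviations of same-numbered libraries correlated at -0.02, -0.00919 and 0.0494 for replicates 1 to 3. Not every library correlated best with its own number, so no pairing by replicate number was visible. With 3 libraries per group, such values cannot settle whether the libraries were paired. With the replicate block, 826 genes and 0 members were called, and the adjusted p of CD69 was 0.0625. Depth limits CTLA4, PDCD1, CD44, ICOS and CD27, which had under 20 counts in every library.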

Other observations

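The counts and the TPM values of CD6 differed in direction, as did those of CD28, CD40LG and CD5. The ratio of count to TPM was therefore compared, after these values had been seen. The ratio was taken relative to the median gene of each library, on the log2 scale, for 13607 tested genes with a mean of at least 1 TPM. For CD6 it was 0.217, 0.264 and 0.191 in DMSO replicates 1 to 3 and 0.117, 0.103 and 0.099 in BPAF replicates 1 to 3. The BPAF values lay under all DMSO values, by 0.12 (95% interval of the difference from -0.18 to -0.06, limma), and groups did not overlap for 18.3% of all genes compared. CD6 ranked 105 of 13607 by p and did not pass (limma adjusted p = 0.441), and 0% of genes passed that test.

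For the other 4 expressed members the differences in this ratio were 0.02 for CD69, -0.05 for CD28, 0.00 for CD40LG and 0.01 for CD5, and their groups overlapped. CD40LG varied little, between -0.401 and -0.391 over the 6 libraries. How the deposited TPM were computed is not stated, and what lies behind the ratio was not tested.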
